A study of Mus musculus with 8 samples.

Results

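The imprinted Dlk1-Meg3 miRNA cluster was followed in 8 small RNA libraries of mouse germ cells and of germ cells made in culture. Its members were the 38 listed miRNA genes among the 66 that the GENCODE annotation places in 1 stretch of mouse chromosome 12, from Mir1906-1 (chr12:109544541-109544620) to Mir3072 (chr12:109747878-109747960, build GRCm38), out of 2202 annotated miRNA genes in all. A read belonged to a member when its sequence was 20 to 24 nt long and was found exactly, on the sense strand, in that member's hairpin. All 38 members lie on the plus strand, from Mir673 to Mir410 (chr12:109571990-109743795, 171.8 kb), and no read matching them also matched a miRNA gene elsewhere. Each member had reads in at least 4 of the 8 libraries.

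The libraries came as 2 replicates each of male mouse primordial germ cells (mPGCs) taken on embryonic day E12.5, on E13.5 or on E15.5, and 2 of day 6 primordial germ cell-like cells (mPGCLCs). The mPGCs carried the GOF18 germ cell reporter, are labelled strain C57BL/6J (the study's methods describe a mixed background for the line) and came from genital ridges of 2 pooled embryos per replicate. Their sort is given as SSEA1 and CD61 antibodies in the labels and as the green reporter in the methods. The mPGCLCs were made from 1 male embryonic stem cell line, SGET (Stella-GFP Esg1-tdTomato, strain B6CBA/129), by way of epiblast-like cells and embryoid bodies, and were sorted as Stella-GFP-positive and Esg1-tdTomato-negative. The study likens day 6 mPGCLCs to migratory mPGCs, from before all ages sampled here. Culture, cell line, strain, sort and developmental stage therefore cannot be told apart in any comparison of mPGCLCs with mPGCs.

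The Dlk1-Meg3 domain is expressed by parental origin. Dlk1, Rtl1 and Dio3 are read from the chromosome inherited from the father, and the non-coding RNAs Meg3, Rian and Mirg, with the miRNAs and small nucleolar RNAs (snoRNAs) that accompany them, from the chromosome inherited from the mother. Methylation of a control region between Dlk1 and Meg3 marks the paternal copy, and such marks are erased in primordial germ cells and later laid down anew. In stem cells the domain is known for being silenced in some lines and active in others.

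The mature sequences of the members on which the comparisons turn are shown first, so that each value below can be tied to an RNA. They are the more abundant arm of each hairpin, from RefSeq (GRCm38.p6), written 5′ to 3′ in chromosomal order, with the seed (bases 2 to 8, which pair with targets) in capitals.
miR-431-5p: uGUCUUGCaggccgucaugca
miR-433-3p: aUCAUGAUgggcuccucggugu
miR-434-3p: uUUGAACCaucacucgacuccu
miR-370-3p: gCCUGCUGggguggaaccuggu
miR-379-5p: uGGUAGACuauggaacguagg
miR-411-5p: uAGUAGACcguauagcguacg
miR-323-3p: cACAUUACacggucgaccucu
miR-543-3p: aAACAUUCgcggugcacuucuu
miR-382-5p: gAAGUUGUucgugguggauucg
miR-485-3p: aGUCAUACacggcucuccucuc
miR-541-5p: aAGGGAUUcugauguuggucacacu
miR-409-3p: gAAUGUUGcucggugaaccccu
The RefSeq table held the more abundant arm of 36 of the 38 members, those of Mir376c and Mir487b being named here only. The 36 sequences carried 36 different seeds, so no pair of these dominant arms shared one. Of the 36 seeds, 6 also occurred in a mature miRNA outside the stretch (those of Mir377, Mir410, Mir411, Mir495, Mir540 and Mir673). Counting both arms, 72 mature sequences held 69 seeds, with 3 pairs alike: miR-379-3p with miR-411-3p, miR-410-5p with miR-494-5p, and miR-376b-5p with miR-376c-5p.

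A short motif recurred among them, overlapping the last bases of the seed in each sequence named here except miR-494-3p. The letters ACACGG, searched on the RNA strand alone, stood in 5 of the 72 sequences (6.94%), namely miR-411-3p, miR-323-3p, miR-494-3p, miR-485-3p and miR-154-3p, against 2 of 1568 mature miRNAs outside the stretch (0.128%). The related ACAUGG, which does not overlap it, stood in miR-379-3p, miR-495-3p and miR-369-3p (4.17%), against 18 of the 1568 (1.15%). These letters were chosen after the sequences were read, and the counts describe the sequences only.

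The cluster as a whole was far more abundant in SGET mPGCLCs than in mPGCs. All 66 miRNA genes of the stretch together made 10.8% of miRNA-matching reads in each of the 2 mPGCLC libraries (176342 reads, 95% Wilson interval 10.7 to 10.8%, and 254877 reads, 10.7 to 10.8%). In E12.5 mPGCs they made 0.563% (interval 0.548 to 0.578%) and 0.625% (0.615 to 0.634%), and in E13.5 mPGCs 0.714% (0.702 to 0.727%) and 0.843% (0.834 to 0.851%). The 2 E15.5 libraries stood apart from each other, at 0.728% (0.698 to 0.759%) and 2.21% (2.17 to 2.26%). These intervals treat each read as independent and cover no spread between replicates. Reads that PCR copied from 1 molecule were counted separately, so the intervals can be too narrow even for counting error.

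**Figure D1:**
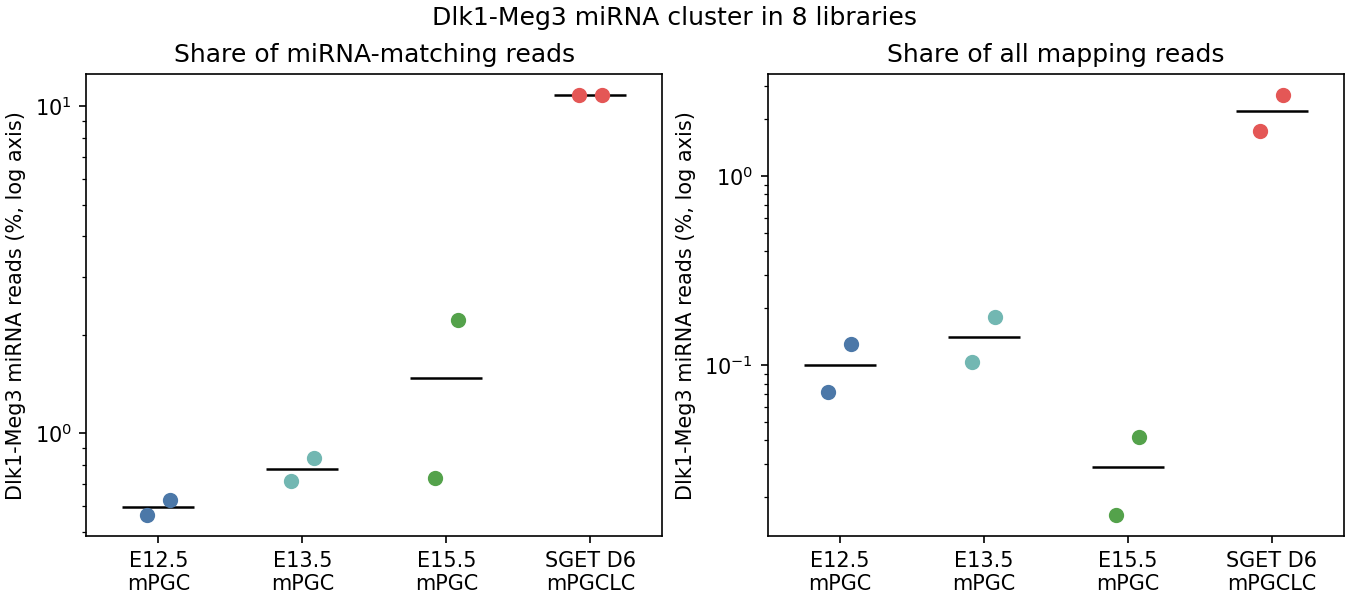
Share of all reads from the 66 miRNA genes of the stretch in each library (points; vertical axes logarithmic, in %), as a part of miRNA-matching reads on the left and of all mapping reads on the right; lines mark the mean of each group of 2. Both SGET mPGCLC libraries lie above all 6 mPGC libraries on either scale, while the second E15.5 library (2.21%) is the highest of the mPGCs on the left and both E15.5 libraries are the lowest on the right.

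The group means were 0.594% ± 0.0436 (SD, n = 2) at E12.5, 0.779% ± 0.0906 in E13.5 cells, 1.47% ± 1.05 in E15.5 cells and 10.8% ± 0.00829 in mPGCLCs. The mPGCLC mean was 18.2 ± 1.33 times the E12.5 mean and 13.8 ± 1.61 times the E13.5 mean (SD propagated from the 2 replicates of each group). The E13.5 mean was 1.31 ± 0.181 times the E12.5 mean, with both E13.5 libraries above both E12.5 libraries. No test was made on these sums, and with 2 libraries against 2 an exact permutation test could not go below p = 0.33. The 38 members supplied nearly all of the signal, at 10.7% ± 0.0356 in mPGCLCs and 0.584% ± 0.0391 at E12.5.

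Taken as a part of all mapping reads, the cluster gave the same order for mPGCLCs and a different one for E15.5. It made 1.73% and 2.68% of mapping reads in the mPGCLC libraries, 0.0722% and 0.129% at E12.5, and 0.104% and 0.179% in E13.5 cells. At E15.5 it made 0.0161% and 0.0419%, below every other library. All miRNAs together made only 2.22% and 1.89% of mapping reads in E15.5 cells, against 12.8% to 24.8% in the other 6, so levels below are given as reads per 1000000 miRNA-matching reads (RPM).

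Depth and library make-up bear on single members. The 8 libraries held 7447873 to 26552524 mapping reads and 301643 to 4195075 miRNA-matching reads, and the E15.5 libraries were the shallowest for miRNAs. The members were detected (at least 1 read) in numbers of 23 and 38 in the E12.5 libraries, 25 and 37 in E13.5 cells, 31 and 38 in E15.5 cells and 33 and 35 in mPGCLCs. Counts came in jumps: in the first E13.5 library the 53 distinct sequences of the stretch split into 22 with 1 to 3 reads, 2 with 4 to 20 and 29 with more than 20, and in the first mPGCLC library only 1 of 170 had 4 to 20 reads. Mir433 and Mir541, with 2 and 1 reads in the first E13.5 library and 2184 and 2272 in the second, show how far replicates could part.

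Markers of other cell types were checked in the same libraries. The pluripotent and early germ cell list (the Mir290 to Mir295 and Mir302/367 families) made 36.6% and 37.2% of miRNA-matching reads in mPGCLCs, 30.4% and 29.7% at E12.5, 21.8% and 21.3% in E13.5 cells, and 14.3% and 13.1% in E15.5 cells. From E13.5 to E15.5, 5 of its 13 features had a fitted fold change above 0, where 168 of all 393 features did. All 5 were of the Mir302/367 family, and none was called (edgeR). Mir302b, for 1, stood at 125 and 79.6 RPM in E13.5 cells and at 693 and 1267 RPM in E15.5 cells. Erythroid Mir451a was at 0 reads in 7 libraries and 1 read in the other. Leukocyte Mir142 was at 0 in both mPGCLC libraries and at 0 to 383 reads in mPGCs. Mir223, also leukocyte, was at 1 and 0 reads in mPGCLCs and at 0 to 113 reads in mPGCs. The Sertoli cell list, Mir202 alone, made 0.0845% to 0.308% of miRNA-matching reads in mPGCs and was at 0 in both mPGCLC libraries. Neural Mir124a was at 0 in mPGCLCs and at 1 to 254 reads in mPGCs, and the 4 neural features summed to 0.0217% and 0.0636% in mPGCLCs against 0.143% to 0.649% in mPGCs. The mesenchymal list (Mir143, Mir145a, the Mir199 genes and Mir214, 7 features) made 0.543% and 0.668% in mPGCLCs, 0.174% and 0.121% at E12.5, 0.108% and 0.394% in E13.5 cells, and 0.403% and 1.17% in E15.5 cells. The mesenchymal sum was thus highest in the E15.5 library in which the cluster was highest among mPGCs, and it was also higher in both mPGCLC libraries than in the E12.5 and E13.5 libraries. None of its 5 tested features was called in a comparison with mPGCLCs (edgeR). At an unadjusted p under 0.05 there were 2 against E12.5, where 83 of all 393 features were. Against E13.5 there were 0, where 81 of the 393 were. The part of the mesenchymal list in the results on the cluster was not tested. Among the other lists, edgeR called Mir202 and the feature joining the Mir9 genes lower in mPGCLCs in both comparisons. It called Mir302b higher in both, and Mir292 higher than E13.5. Over all 393 features it called 26 lower and 13 higher against E12.5, and 32 lower and 16 higher against E13.5. In bulk samples, fewer cells of a type and less RNA per cell cannot be told apart.

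Across members, the rise in mPGCLCs was broad. All 38 passed the filter on low counts, but 7 of them (Mir376a, Mir376c, Mir377, Mir666, Mir667, Mir668 and Mir673) would not have passed on the 6 mPGC libraries alone, and none of these 7 was called by edgeR. Of the other 31 members, 23 had both mPGCLC libraries above all 6 mPGC libraries, where 16.1% of the 367 miRNA features that passed on the mPGC libraries alone did. Against E12.5, 11 of 38 members passed the test as higher in mPGCLCs (edgeR quasi-likelihood test, adjusted p under 0.05), where 3.31% of all features tested, 13 of 393, were called higher. None of the 31 was called lower by edgeR or DESeq2, and none had an unadjusted p under 0.05 in that direction (edgeR). Over all features, edgeR called 26 of the 393 (6.62%) lower and DESeq2 12.4% of its features. The other 7 members passed the filter only through the mPGCLC libraries and are left out of the counts of members called lower. Against E13.5, again 11 members were called higher, where 4.07% of all features (16 of 393) were. None of the 31 was called lower by edgeR or DESeq2 (0 at an unadjusted p under 0.05 by edgeR). Over all features, 8.14% were lower by edgeR and 15% by DESeq2. The median log2 fold change of the 31 members was 4.21 against E12.5 and 3.54 against E13.5, beside -0.40 and -0.53 over the 367 features. These comparisons share the mPGCLC libraries. In all, 13 members were called in at least 1 of them and 9 in both.

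Without the first E12.5 library, 6 members were called higher than E12.5, and without the first E13.5 library 6 were called higher than E13.5. The named members that lost the call were Mir323, Mir431, Mir487b and Mir543 against E12.5, and Mir323, Mir370, Mir382, Mir433 and Mir543 against E13.5. DESeq2 called 24 and 21 members higher, where it called 10.4% and 9.14% of its features; 20 and 16 of those members were among the 31. The levels of all members by library are in the heat map in chromosomal order.

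**Figure D2:**
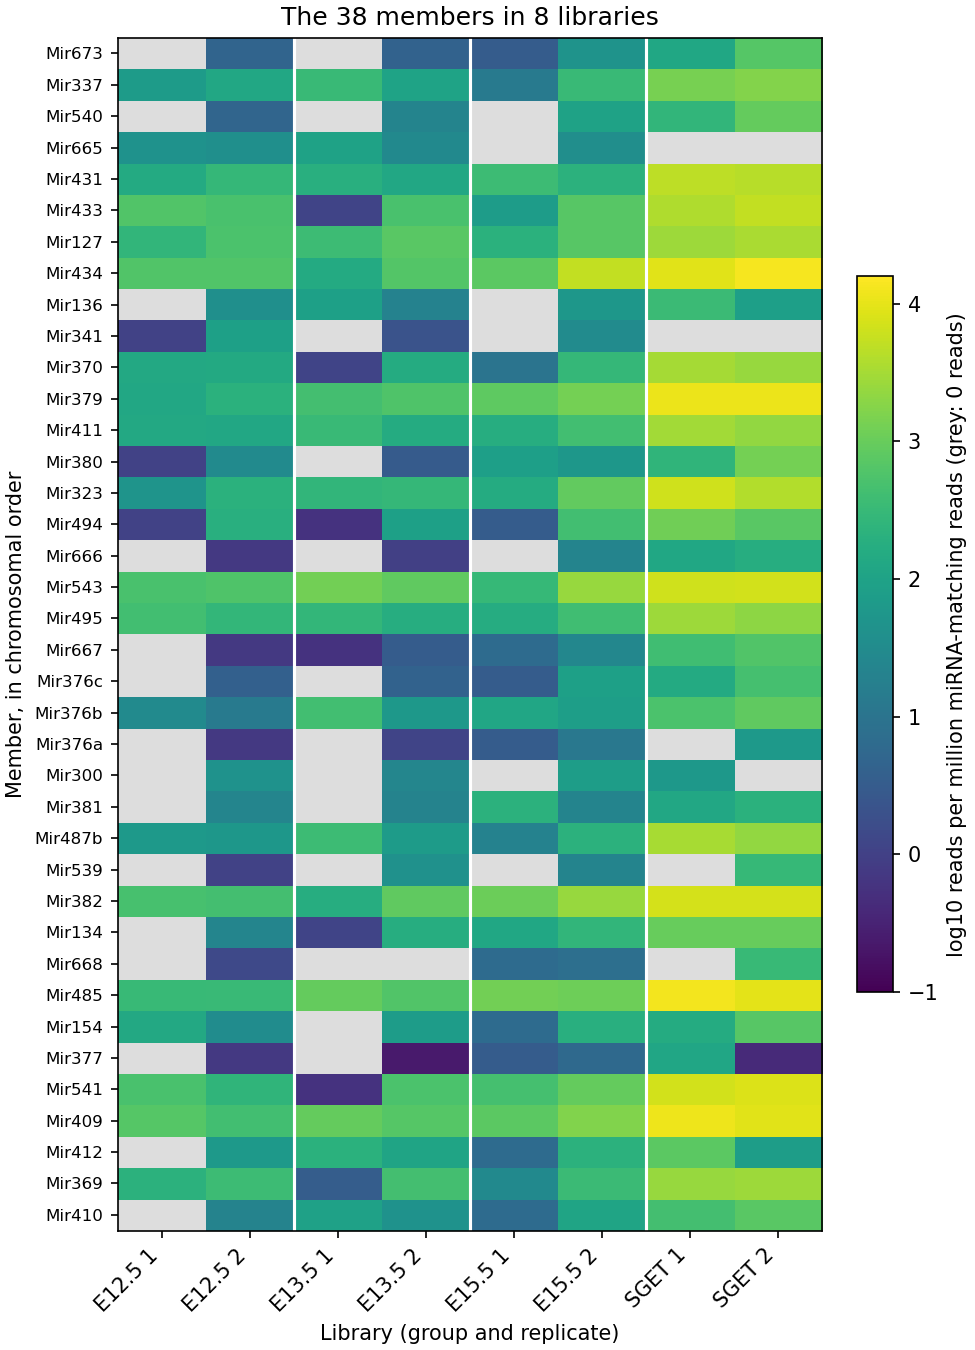
Level of each of the 38 members (rows, in chromosomal order) in each of the 8 libraries (columns), as log10 reads per 1000000 miRNA-matching reads; grey marks 0 reads. The 2 SGET columns are brighter than the mPGC columns for most rows, Mir665 and Mir341 are grey in both SGET columns, and grey cells are most frequent in the first E12.5 and first E13.5 libraries.

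The members upstream of Rtl1 are Mir673, Mir337, Mir540 and Mir665. As a group they made 0.177% and 0.337% of miRNA-matching reads in mPGCLCs, and 0.00166% to 0.0518% in the 6 mPGC libraries, so the groups did not overlap. None of the 4 was called in any comparison. Of the 4, 2 had an unadjusted p under 0.05 (edgeR) against E12.5, where 83 of all 393 features did. Mir337 (chr12:109585789-109585885), the most abundant of them, stood at 1384 and 1748 RPM in mPGCLCs, at 70.2 and 132 RPM at E12.5 and at 329 and 103 RPM in E13.5 cells (log2 fold change 3.95 ± 1.73 SE against E12.5, adjusted p = 0.155). Mir665 went the other way in its values: it had 43, 111, 170 and 122 reads in the E12.5 and E13.5 libraries, 0 and 19 in E15.5 cells, and 0 in both mPGCLC libraries. Set against a floor of 3 counts per library, Mir665 was at least 27.3-fold lower in mPGCLCs than at E12.5 and at least 40.6-fold lower than in E13.5 cells, and neither difference passed the test (adjusted p = 0.312 and 0.32).

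The 5 members transcribed antisense to Rtl1, a retrotransposon-derived gene needed in the placenta, are Mir431, Mir433, Mir127, Mir434 and Mir136. Their hairpins lie opposite an Rtl1 exon, and because they match that mRNA fully they can direct its cleavage. As a group they made 2.11% and 2.69% of miRNA-matching reads in mPGCLCs, against 0.164% and 0.197% at E12.5, 0.0804% and 0.207% in E13.5 cells, and 0.143% and 0.706% in E15.5 cells. Of the 5, 2 were called higher than E12.5 and 3 higher than E13.5 (edgeR), where 3.31% and 4.07% of all 393 features were.

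Mir434 (chr12:109594506-109594599) had the highest mean share over the 8 libraries. It stood at 9323 and 13638 RPM in mPGCLCs, at 625 and 614 RPM at E12.5, at 149 and 655 RPM in E13.5 cells, and at 782 and 5380 RPM in E15.5 cells. Both mPGCLC libraries lay above every mPGC library, with the second E15.5 library nearest to them. Mir434 was higher in mPGCLCs with a log2 fold change of 4.21 ± 0.79 against E12.5 (SE; edgeR adjusted p = 4.67e-05) and of 4.84 ± 0.81 against E13.5 (edgeR adjusted p = 6.16e-06).

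Mir431 (chr12:109590447-109590537) behaved alike, at 4872 and 4334 RPM in mPGCLCs and between 128 and 361 RPM in the 6 mPGC libraries. Its log2 fold change was 4.38 ± 1.11 against E12.5 (edgeR adjusted p = 0.00391) and 4.86 ± 1.13 against E13.5 (adjusted p = 0.00113). Mir433 (chr12:109591715-109591838) stood at 3877 and 5350 RPM in mPGCLCs and at 603 and 500 RPM at E12.5. In the E13.5 libraries it stood at 1.14 RPM (2 reads) and 521 RPM (2184 reads). It was called higher than E13.5 (log2 fold change 4.14 ± 1.28, edgeR adjusted p = 0.0196) and not than E12.5 (3.06 ± 1.22, adjusted p = 0.112), and without the first E13.5 library the adjusted p against E13.5 was 0.21. Mir127, the best known of the 5, stood at 2700 and 3497 RPM in mPGCLCs and at 209 to 744 RPM in mPGCs, with no overlap, and missed the threshold against E12.5 (log2 fold change 2.97 ± 1.12, adjusted p = 0.0912). Mir136 was scarce, at 351 and 85.4 RPM in mPGCLCs and 0 to 92.3 RPM in mPGCs, and its groups overlapped.

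Mir341 and Mir370 lie in introns of Rian, the host RNA of the C/D box snoRNAs of the domain, and their values parted. Mir370 (chr12:109618258-109618336) stood at 3204 and 2448 RPM in mPGCLCs, at 137 and 145 RPM at E12.5 and at 9.95 and 297 RPM in E15.5 cells. In the E13.5 libraries it had 2 reads (1.14 RPM) and 671 reads (160 RPM). It was called higher than E13.5, with the highest log2 fold change of the called members in that comparison (5.13 ± 1.59, edgeR adjusted p = 0.0196), which became 4.14 (adjusted p = 0.238) without the first E13.5 library. Against E12.5 the log2 fold change was 4.32 ± 1.53 (adjusted p = 0.0617). Mir341 had 253 reads in 1 E12.5 library, 16 or fewer in the other 5 mPGC libraries, and 0 in both mPGCLC libraries.

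The remaining 27 members, from Mir379 to Mir410, form the tight array at the far end, whose second part overlaps the annotated Mirg transcript. As a group they made 8.07% and 7.36% of miRNA-matching reads in mPGCLCs, 0.367% and 0.373% at E12.5, 0.572% and 0.593% in E13.5 cells, and 0.581% and 1.39% in E15.5 cells. The mean in mPGCLCs was 20.9 ± 1.38 times that at E12.5 and 13.2 ± 0.927 times that in E13.5 cells. Of the 27, 9 were called higher than E12.5 and 7 higher than E13.5 (edgeR), where 3.31% and 4.07% of all 393 features were.

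Mir379 (chr12:109709060-109709125), the first hairpin of the array, showed the widest difference of the called members against E12.5. It stood at 11229 and 11216 RPM in mPGCLCs, at 132 and 214 RPM at E12.5, at 433 and 595 RPM in E13.5 cells and at 802 and 1273 RPM in E15.5 cells. No group overlapped another. Its log2 fold change was 6.02 ± 0.82 against E12.5 (edgeR adjusted p = 5.83e-08) and 4.45 ± 0.76 against E13.5 (adjusted p = 7.68e-06), while between mPGC ages it was 1.57 ± 0.67 from E12.5 to E13.5 (adjusted p = 0.759) and 1.01 ± 0.66 from E13.5 to E15.5 (adjusted p = 0.871).

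Mir485 (chr12:109734902-109734974), in a Mirg exon, stood at 13054 and 9724 RPM in mPGCLCs, at 315 and 342 RPM at E12.5, at 957 and 619 RPM in E13.5 cells and at 1247 and 1112 RPM in E15.5 cells. It was higher in mPGCLCs than at E12.5 (log2 fold change 5.12 ± 0.76, edgeR adjusted p = 5.87e-07) and than in E13.5 cells (3.85 ± 0.72, adjusted p = 4.45e-05). Mir409 (chr12:109743158-109743236), in a Mirg intron, reached a like level, at 11730 and 9153 RPM in mPGCLCs and 413 to 1650 RPM in mPGCs (log2 fold changes 4.28 ± 0.76 and 3.70 ± 0.74, edgeR adjusted p = 1.72e-05 and 0.000124). In mPGCLCs the means of Mir434, Mir485, Mir379 and Mir409 lay between 10442 and 11480 RPM, and they ranked 17 to 20 among all miRNA features there. The neighbours in that order did not differ beyond their spread over replicates (SD 8.64 to 3051 RPM). At E12.5 the same 4 ranked 102, 144, 187 and 111.

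Mir382 (chr12:109733771-109733846) stood at 7330 and 7163 RPM in mPGCLCs and at 171 to 2457 RPM in mPGCs, with the second E15.5 library highest among these (log2 fold changes 3.96 ± 0.85 and 3.81 ± 0.84, edgeR adjusted p = 0.000441 and 0.000599). Mir541 (chr12:109742409-109742498) stood at 6949 and 8519 RPM in mPGCLCs and at 512 and 247 RPM at E12.5. At E13.5 it had 1 read in the first library and 2272 reads (542 RPM) in the second. Its log2 fold changes of 4.35 ± 1.13 (edgeR adjusted p = 0.00487) and 4.83 ± 1.15 (adjusted p = 0.00144) passed the test, and did not with all mapping reads as library size (adjusted p = 0.139 and 0.129) or with TMM scaling (0.0791 and 0.0563). Its RefSeq mature form is 25 nt long, beyond the window counted.

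Mir543 (chr12:109717258-109717333) stood at 6821 and 6921 RPM in mPGCLCs and at 308 to 2509 RPM in mPGCs, and had the smallest log2 fold change of the called members (3.67 ± 0.86 against E12.5 and 2.73 ± 0.82 against E13.5, edgeR adjusted p = 0.00137 and 0.0161). Mir323 (chr12:109712508-109712593) stood at 6580 and 3900 RPM in mPGCLCs and at 49.2 to 875 RPM in mPGCs (log2 fold changes 5.34 ± 1.14 and 4.24 ± 1.08, edgeR adjusted p = 0.00041 and 0.00308). Without the first E12.5 library the edgeR adjusted p against E12.5 was 0.0614 for both, and the call on Mir543 against E13.5 was lost when any 1 of the 4 libraries compared was left out (0.0824 to 0.178). Mir487b (chr12:109727333-109727414) stood at 3362 and 2296 RPM in mPGCLCs and 19.9 to 367 RPM in mPGCs, and was called against E12.5 (log2 fold change 5.56 ± 1.49, edgeR adjusted p = 0.00649) and not against E13.5 (3.68 ± 1.36, adjusted p = 0.065). Mir411, also called against E12.5 only, stood at 3082 and 2290 RPM in mPGCLCs and at 131 to 428 RPM in mPGCs (4.32 ± 1.33, edgeR adjusted p = 0.0209). Whether either comparison differed from the other was not tested.

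**Figure D3:**
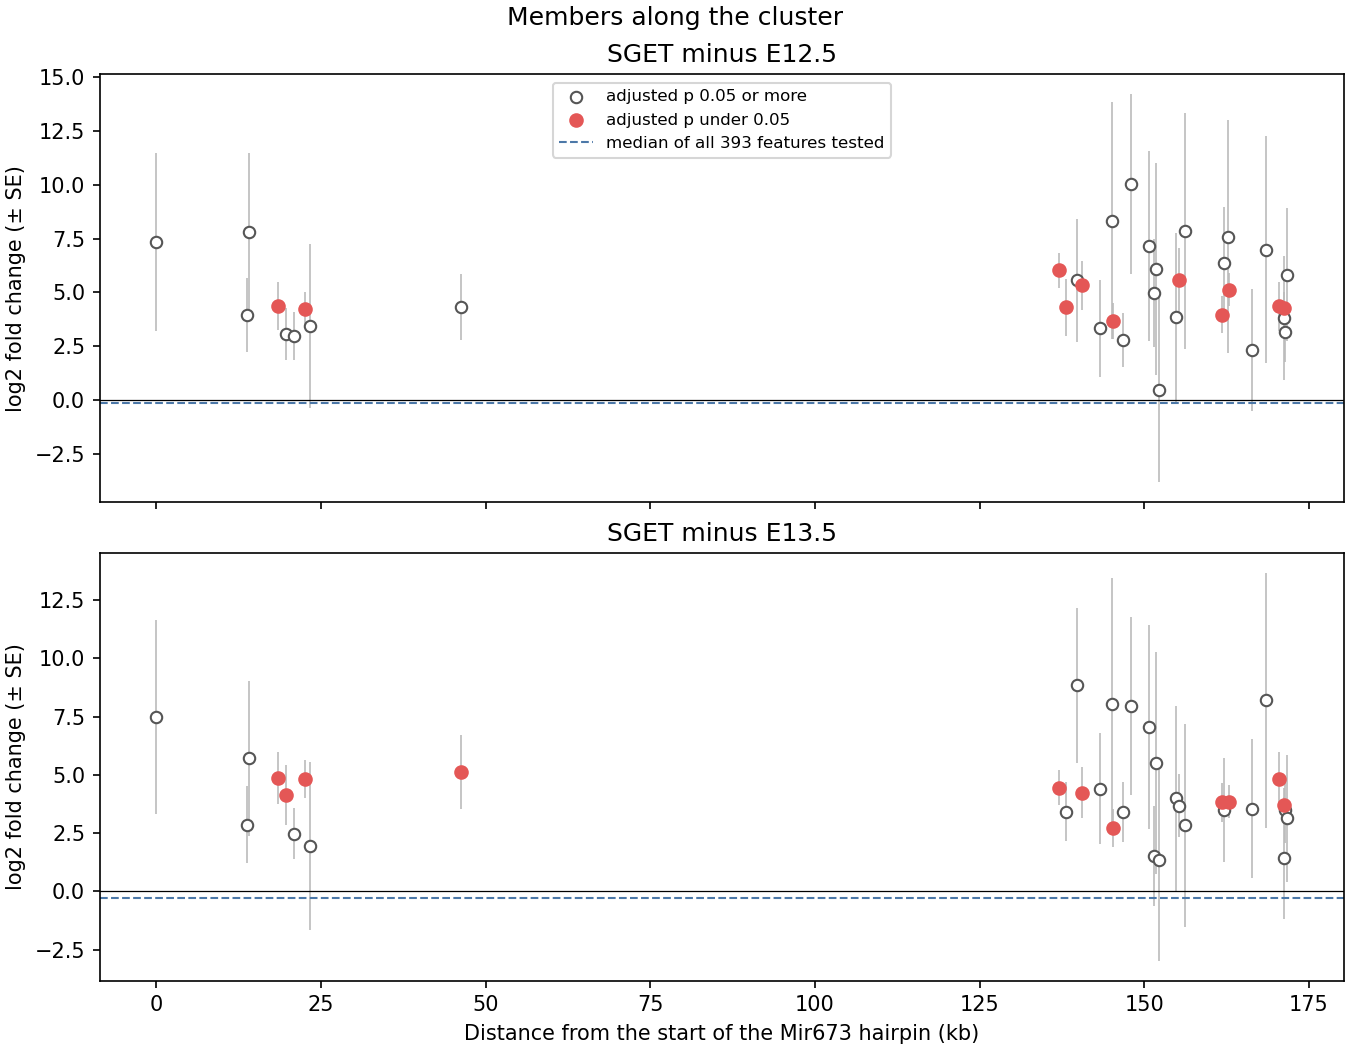
Log2 fold change with its SE (edgeR) of each member, SGET mPGCLCs minus E12.5 mPGCs above and minus E13.5 mPGCs below, against the distance of its hairpin from that of Mir673 in kb; filled points passed the test and the dashed line is the median of all 393 features. Members with 0 reads in both libraries of a group are left out (Mir665 and Mir341, and Mir668 below). The called members range from 3.67 to 6.02 above and from 2.73 to 5.13 below. They lie from Mir431 to Mir409, and none is among the members upstream of Rtl1.

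The other members of the array were less abundant or less even. Mir369, Mir495 and Mir134, the last a regulator of Limk1 in neurons, were above all mPGC libraries in both mPGCLC libraries without passing the test. Mir376a, Mir539 and Mir668 had reads in only 1 of the 2 mPGCLC libraries, and Mir377 had 192 and 1. Mir300 had 99 and 0 reads in mPGCLCs and up to 124 in mPGCs.

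Of the 28 miRNA genes of the stretch that are not among the 38, 12 had reads and 9 entered the test. Together they made 0.111% and 0.150% of miRNA-matching reads in mPGCLCs and 0.000663% to 0.0377% in mPGCs. None was called in any comparison with mPGCLCs (edgeR), and 0 had an unadjusted p under 0.05. A fitted fold change above 0 was found for 8 of the 9 in each comparison. Over all 393 features it was found for 175 against E12.5 and 179 against E13.5. The low-count filter also counted the mPGCLC libraries, so the 9 were not chosen without them and their fold changes are not given. Of the 28, Mir493 had the most reads, with 908 and 856 in mPGCLCs.

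The miRNAs of other imprinted loci, listed for comparison, had shares that overlapped between mPGCLCs and mPGCs. Mir296 and Mir298 (Gnas domain), Mir335 (Mest), Mir483 (Igf2) and Mir675 (H19) together made 1.25% and 1.47% of miRNA-matching reads in mPGCLCs and 0.94% to 1.66% in mPGCs. None of the 4 features tested was called in either comparison with mPGCLCs (edgeR; 0 at an unadjusted p under 0.05), and their median log2 fold changes were -0.20 and -0.18. Mir675 was at 0 in 7 libraries and had 815 reads in the second mPGCLC library.

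Between mPGC ages few differences in members passed. From E12.5 to E13.5 none of the 38 members was called by edgeR, where 1.02% of all features (4 of 393) were called higher and 0% lower. An unadjusted p under 0.05 was reached by 1 member and by 19 of the 393 features. DESeq2 called 1 member lower and none higher, where it called 0.509% of its features lower and 1.78% higher. The median log2 fold change of the members was 0.39, beside -0.02 over all features. From E13.5 to E15.5 only Mir434 was called, higher in E15.5 cells (log2 fold change 2.94 ± 0.74, edgeR adjusted p = 0.0451), where 0.509% of all features (2 of 393) were called higher. DESeq2 called 3 members higher, where it called 4.42% of its features. The median of the members was 0.97, beside -0.28 over all features. With all mapping reads as library size the median of all features in that comparison moved to -3.45, Mir434 to -0.43, and 5 members were called lower, where 21.2% of all features (80 of 378) were.

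The Mir434 call rested on 1 library and largely on 1 sequence. In the second E15.5 library, 2233 of 2700 Mir434 reads (82.7%) were a form that starts 1 base upstream of the RefSeq start, at the position before it in the hairpin, and ends 1 base short of it. Its counted sequence and the usual form are shown as DNA letters, as in the deposited files, with bases 2 to 8 in capitals.
Mir434, form of the second E15.5 library: gTTTGAACcatcactcgactcc
Mir434, usual form: tTTGAACCatcactcgactcct
Reads with the upstream start numbered 0 in both E12.5 libraries, 0 and 1 in E13.5 cells, 0 in the first E15.5 library, and 0 and 326 in mPGCLCs (1.01% of the Mir434 reads of the second). Without the second E15.5 library the log2 fold change of Mir434 was 0.96 (edgeR adjusted p = 0.842).

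Reads came mainly from 1 arm of each hairpin. Over all libraries the 3p arm gave more reads in 25 members and the 5p arm in 13. Of the 31 members with at least 100 reads in both mPGCLC libraries, 13 had more than 90% from the 3p arm as the mean of the 2 libraries' shares, 8 had less than 10% (Mir134, Mir337, Mir379, Mir382, Mir412, Mir431, Mir541 and Mir673), and 10 lay between. Mir412 had 14.3% and 0% in these 2 libraries. Some means of the 10 joined libraries that disagreed, such as Mir666 at 100% and 0.48% and Mir667 at 34.3% and 99.9%. Mir411 was the most mixed of the called members, at 31.8% ± 15.4 (SD, n = 2) from the 3p arm in mPGCLCs.

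In 6 members every library had at least 100 reads, so that arm use could be set side by side. Mir379 kept to the 5p arm, with 1.92% and 5.81% of reads from the 3p arm in mPGCLCs and 0% to 3.13% in mPGCs. Mir409 kept to the 3p arm, at 97.4% and 95.9% in mPGCLCs and 82.6% to 100% in mPGCs. Mir485 drew 59.5% and 79.5% of its reads from the 3p arm at E12.5, 88.2% and 90.3% in E13.5 cells, 98.9% and 90.3% in E15.5 cells, and 88.1% and 83.8% in mPGCLCs. Mir431 and Mir434 each had 1 library apart: Mir431 had 34.9% from the 3p arm in the second E13.5 library and at most 5.41% elsewhere, and Mir434 had 42.0% in the first E13.5 library and 78.4% or more elsewhere.

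**Figure D4:**
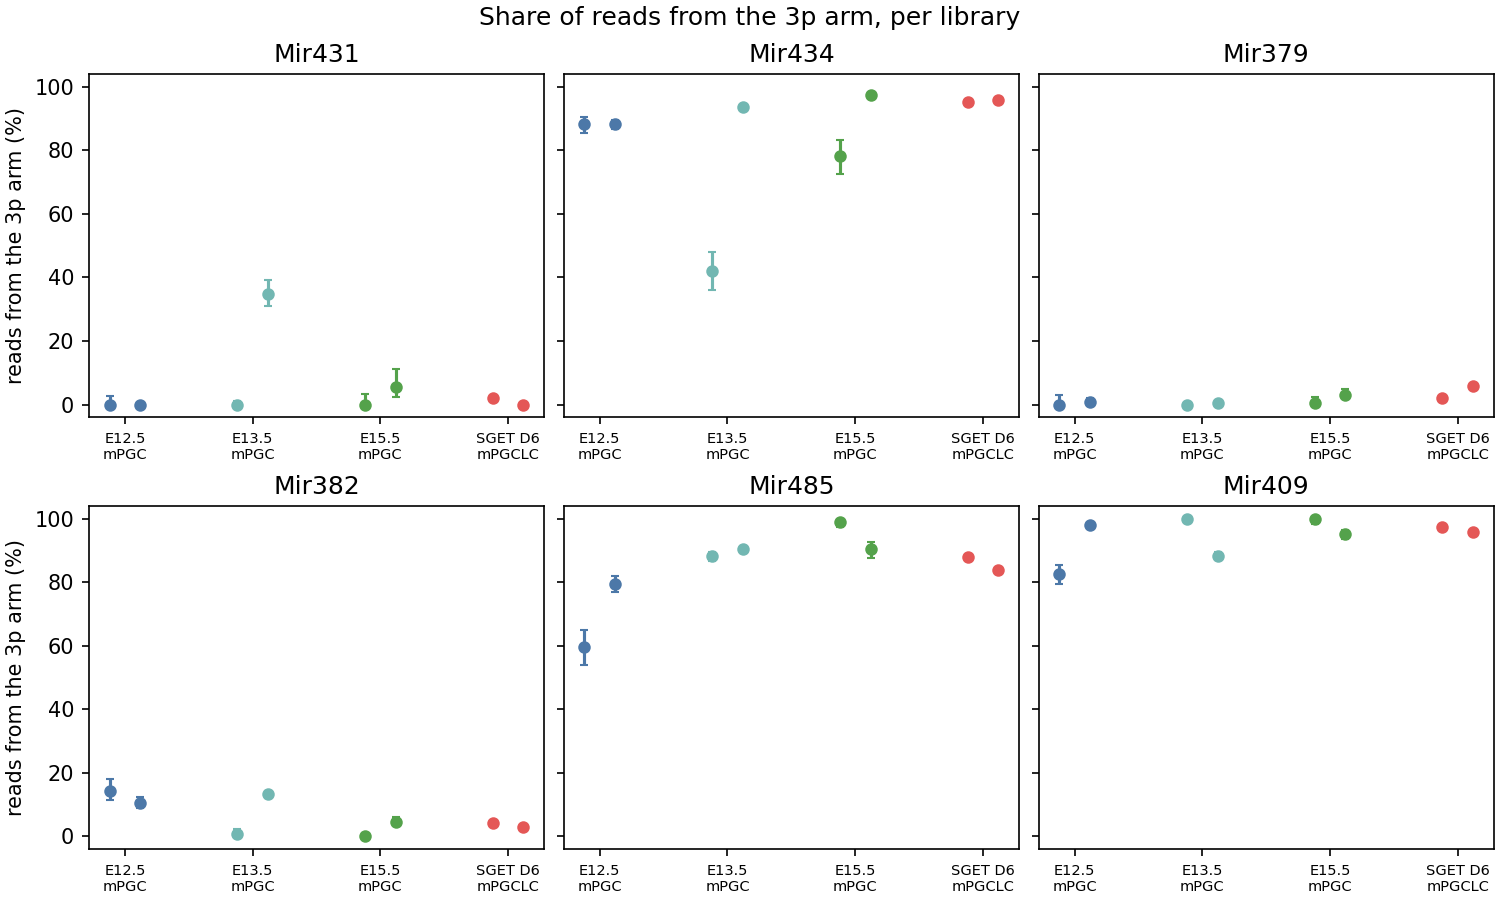
Share of reads from the 3p arm (%) in each library for the 6 members with at least 100 reads in every library. Bars are 95% Wilson intervals, which treat each read as independent and can be too narrow. Mir431, Mir379 and Mir382 have more reads from the 5p arm in every library, and Mir434, Mir485 and Mir409 from the 3p arm, except Mir434 in the first E13.5 library (42.0%); Mir485 is lowest in an E12.5 library (59.5%).

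The 5′ start, which sets the seed, matched the RefSeq start for most reads. Over the dominant arms, the share of reads at that base was 82.7% and 83.3% in mPGCLCs, 86.4% and 86.2% at E12.5, 77.7% and 88.5% in E13.5 cells, and 72.8% and 69.6% in E15.5 cells. Mir379, Mir431, Mir543, Mir541 and Mir433 each had over 94% of their dominant-arm reads at that base when all libraries were pooled. Mir485 departed most, with 24.6% of its 43713 3p reads at the annotated start and 51.1% at 1 base downstream. Its 3 most frequent sequences, each with its own bases 2 to 8 in capitals, are shown because those bases differ between them.
Mir485 3p, 1 base downstream: gTCATACAcggctctcctctct
Mir485 3p, RefSeq start: aGTCATACacggctctcctctct
Mir485 3p, further downstream: cATACACGgctctcctctcttc
The RefSeq start took 34.57% and 12.55% of Mir485 3p reads in the 2 mPGCLC libraries, and 0%, 46.1%, 30.2%, 24.7%, 39.5% and 62.1% in the 6 mPGC libraries in order of age and replicate, so the spread within groups was as wide as that between them. Mir411, Mir323 and Mir409 also had more than 1 frequent start, with 52.6%, 60.6% and 65.3% of dominant-arm reads at the RefSeq base.

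Fragments of the snoRNAs of the same stretch gave a readout of the domain that shares no reads with the miRNAs. It was chosen after the miRNA values were seen and was not tested. Of 239 candidate sequences of the snoRNAs, Meg3, Rian and Mirg, the 80 also found in a transcript outside the stretch or in a miRNA hairpin were left out. Sequences of at least 18 nt found in sense in the annotated snoRNA genes of the stretch, 14 of 23 with reads, summed to 437 and 544 reads per 1000000 mapping reads in mPGCLCs. They summed to 27.5 and 82.8 (same scale) at E12.5, 2.82 and 91.0 in E13.5 cells, and 11.9 and 72.5 in E15.5 cells. Both mPGCLC libraries lay above all 6 mPGC libraries, and the mPGCLC mean was 8.89 ± 6.45 times the E12.5 mean. Fragments of snoRNAs outside the stretch were not counted here, so whether this difference is particular to the stretch was not tested. Fragments of Rian itself stood at 24.1 and 25.4 on that scale in mPGCLCs and at 0.083 to 11.7 in mPGCs. Mirg fragments stood at 34.0 and 0 in mPGCLCs and at 0 to 8.21 in mPGCs, so that for Mirg the groups overlapped. Meg3 fragments were at 0 in mPGCLCs and at most 3.16 in any library.

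**Figure D5:**
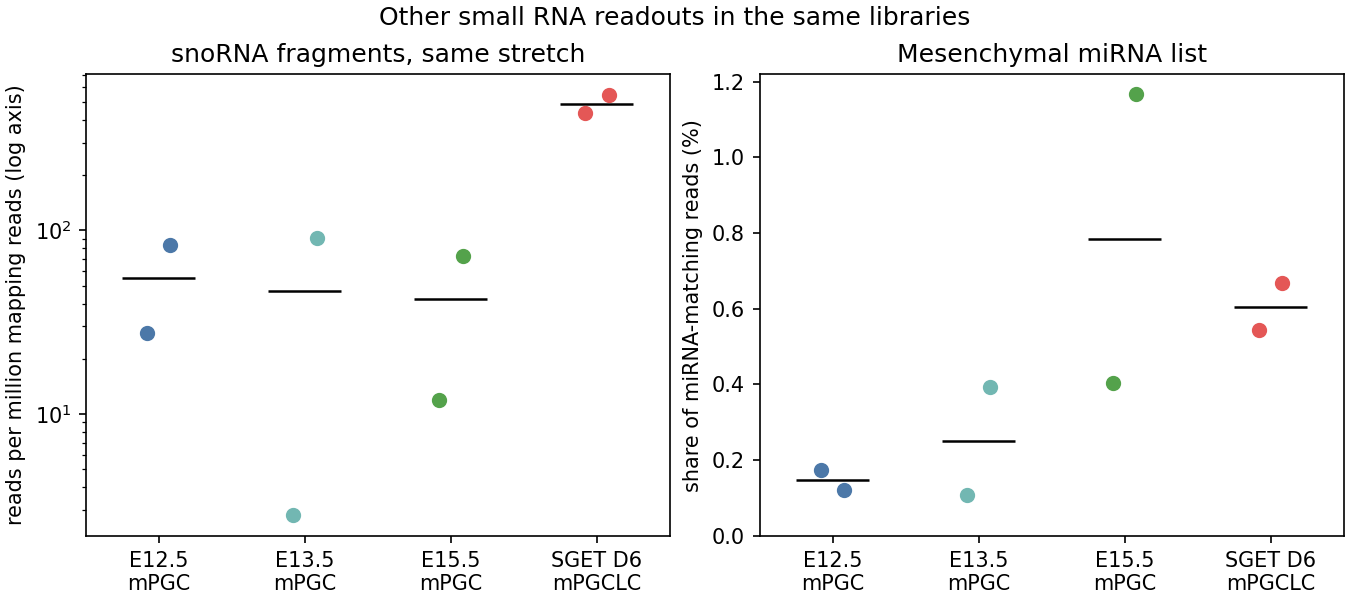
Left, snoRNA fragments of the same stretch as reads per 1000000 mapping reads in each library (logarithmic axis); right, summed share of the mesenchymal miRNA list in miRNA-matching reads (%). Points are libraries and lines the means of 2; both SGET libraries lie above all mPGC libraries on the left, while on the right the second E15.5 library (1.17%) is highest.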

How the data were processed

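Small RNAs under 200 nt from sorted cells were made into libraries with the NextFlex kit for low input, whose adapters carry 4 random bases at each end. The authors trimmed reads (cutadapt 3.2), aligned them to GRCm38 (STAR 2.5.3a, up to 100 places, 2 mismatches) and deposited, for each library, every mapping sequence with its read count. The random bases were removed and not used to merge PCR copies. Libraries were run on 2 sequencer models, which the labels do not assign.

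From these counts, sequences of 20 to 24 nt were matched exactly and in sense to GENCODE vM21 miRNA hairpins; a sequence in several genes formed a joint feature. Of 571 features, 393 passed edgeR's filterByExpr. They were tested with edgeR 4.0.16 (quasi-likelihood test, all 8 libraries in 1 fit by group, library size the miRNA-matching reads, Benjamini-Hochberg over all 393). The log2 fold changes are from that fit. DESeq2 1.42.0, other scalings and counting rules, a replicate block and leaving out each library were tried. Members named are the 10 with the highest mean share and, in each comparison, up to 6 called with the largest change; others named were chosen after their values were seen. The members and lists were chosen with earlier results of these data known. The other marker features (Mir126a, endothelial) were at 0.000332% to 0.0434% of miRNA-matching reads in all groups; Mir144 (erythroid) was at 71 reads in 1 E13.5 library and 0 elsewhere. The mPGC replicates came from different litters; nothing used here says whether the mPGCLC replicates were separate differentiations, so p-values may there measure technical spread. The edgeR step was tested on simulated data with changes of up to 8-fold and the same spread given to every feature. At a low spread between replicates it recovered most of the largest changes but few of the smallest. At the common spread of these libraries it recovered none. Larger changes were not simulated, and neither was a spread that differs between features. Counting and figures used Python 3.11.15 with pandas 2.3.3 and matplotlib 3.10.9, and the fits R 4.3.3.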

Additional observations from a re-analysis of the deposited data

How the results depend on the processing

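The counts of members in this section run over all 38, including those that would not have passed the filter on mPGC libraries alone. For comparisons with mPGCLCs, calls over all features are given for the main edgeR fit and DESeq2 only. Counts under other settings therefore cannot be set against a share of all features. Against E12.5, 11 members were called higher, while DESeq2 called 24 and a fit of only the 2 groups 18. Against E13.5, 11 were called; 7 with all mapping reads as library size, 7 with TMM and 21 with DESeq2. No alternative called a member lower in mPGCLCs, and no named member reversed there. Leaving out each library in turn gave 6 to 10 members higher than E12.5 and 6 to 11 higher than E13.5. From E12.5 to E13.5, 0 members were called lower; DESeq2 called 1, and leaving out libraries gave 0 to 2 (2 without the second E13.5 library). From E13.5 to E15.5, 1 member was called higher; 0 with all mapping reads as library size (5 then lower), 0 with TMM, 0 with sequences counted in every matching gene, 0 with only the 2 groups and 3 with DESeq2, and leaving out libraries gave 0 to 3. Mir434 there reversed to -0.43 with all mapping reads as library size. The cluster ratio of E15.5 over E13.5 (1.89) became 0.205 over all mapping reads and 0.935 without the second E15.5 library (range 0.935 to 2.84 over libraries left out). The ratios of mPGCLCs over E12.5 and E13.5 became 21.9 and 15.54 over all mapping reads. The mPGCLC share (10.8%) was 11.3% with 18 to 26 nt, 10.8% with only reads near the main 5′ start and 10.7% with only the 38 members. Over all features, DESeq2 called 37 (edgeR 13) higher than E12.5 and 31 (edgeR 16) higher than E13.5. The same-numbered mPGC libraries come from different litters, and the mPGCLC libraries from culture. The correlation of deviations between same-numbered libraries was 0.0163 to 0.0831 over 4 comparisons. A fit with the replicate block called 10 members higher than E12.5, 11 higher than E13.5, and 0 from E13.5 to E15.5. The cause of these changes was not tested. Depth limits the E15.5 libraries most, where 3 reads are 9.95 and 5.98 RPM.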
